A study of Homo sapiens with 16 samples.

Results

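The high mobility group (HMG) genes of the HMGA, HMGB and HMGN families were followed in T47D-MTVL, a luminal line derived from human breast cancer that carries 1 luciferase reporter copy under the MMTV promoter. Their members were taken by gene symbol from the array's annotation: HMGA1, HMGA2, HMGB1, HMGB2, HMGB3, HMGN1, HMGN2, HMGN3, HMGN4 and HMGN5. These 10 genes had 14 probes of 24530 on the array, and 10 symbols of 17553. HMG proteins are abundant, mobile chromatin proteins that bind nucleosomes and linker DNA and displace linker histone H1 from its sites, each family with its own DNA- or nucleosome-binding motif. HMGA proteins bind AT-rich DNA through AT-hooks and are low in most adult tissues but often raised in tumours. HMGB proteins bend DNA with HMG boxes, and HMGN proteins bind the nucleosome core next to H1.

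RNA was measured on 16 Illumina bead arrays in 8 groups of 2. The Ctrl, sh120 and sh225 groups were lines carrying, in a lentiviral vector, a random hairpin, a hairpin against H1.4 and a hairpin against several H1 variants. All 3 also expressed RedFP and a doxycycline (Dox) responsive KRAB repressor, and were sorted for fluorescence. Ctrl_Dox, sh120_Dox and sh225_Dox were the same lines with Dox at 2.5 µg/mL for 6 days, passaged at day 3 and without serum from day 4, a step meant to arrest growth. The labels do not tell whether cells without Dox also lost serum. The WT and K26 groups were lines that overexpressed HA-tagged H1.4, wild type or K26A mutant, with no treatment. Each hairpin or construct was followed in 1 line. Nothing in the labels says that both replicates of a group came from separate cultures. The p-values therefore reflect array-to-array spread, possibly only technical.

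Between 9477 and 10286 probes were detected per array, and replicates correlated across genes at r = 0.989 to 0.994. All 8 luminal breast epithelium markers were detected, 6 of them on every array. Of 14 markers of basal cells, leukocytes, fibroblasts and endothelium on the array, 3 were detected: ACTA2, COL1A1 and CD14, the last on 4 arrays. In the submitters' descriptions, sample numbers 1 to 8 run once over the Ctrl and sh120 lines and again over the sh225, WT and K26 lines. If these runs were sets handled apart, WT, K26 and untreated sh225 against Ctrl cannot be told apart from the set. The Dox effect of each line and K26 against WT lie within a run. The sh225 Dox effect minus that of Ctrl or sh120 spans both runs, and a set effect cancels there only if additive.

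H1 transcripts were measured for 3 of 9 H1 genes on the array. With Dox, 2 of 3 fell in the sh225 line and 1 of 3 in the sh120 line, beside 18.5% and 8.43% of all items. In the Ctrl line 1 of 3 rose, beside 2.98% of all items called in either direction. H1-2 fell by 2.75 ± 0.15 with Dox in the sh225 line (log2 difference ± SE, limma adjusted p = 6.09e-11), with 1 of 2 sh225_Dox arrays detecting it. H1-4 was detected on the 4 arrays of WT and K26 and on no other array, so the H1-4 level in the sh120 line was not measurable here. In the overexpression lines all 3 measured H1 genes were higher than in Ctrl, beside 16.3% of all items in WT and 24.2% in K26. Among them was H1-4, the overexpressed gene, for which only a bound is known because no Ctrl array detected it. H1-2 was higher by 1.48 ± 0.15 in WT (4.4e-07) and by 2.68 ± 0.15 in K26 (6.41e-11), and by 1.21 ± 0.15 in K26 against WT (1.62e-05).

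The opposite movements of HMGN2 and HMGN4, and the fall of HMGA1, are the results on which most of the following turns, so the sequences upstream of these genes are shown first. Each is the 250 bases before an annotated start, plus strand, GRCh38.p14, from RefSeq. HMGA1 has a pair of annotated starts. Capitals mark matches to any of 7 motifs searched on both strands. These were the CCAAT box, the GC box with the letters GGGCGG, the E-box with CACGTG, an E2F-type motif spelled TTTNNCGC, a CHR-type motif spelled TTTGAA, an ISRE-type motif, and the TATA box searched as TATAAA.
HMGN2, chr1:26472190-26472439: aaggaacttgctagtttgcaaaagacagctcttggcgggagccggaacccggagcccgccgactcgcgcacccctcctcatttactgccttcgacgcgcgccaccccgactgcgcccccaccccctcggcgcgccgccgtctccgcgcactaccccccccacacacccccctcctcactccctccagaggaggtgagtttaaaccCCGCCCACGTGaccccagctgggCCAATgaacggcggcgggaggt
HMGN4, chr6:26538116-26538365: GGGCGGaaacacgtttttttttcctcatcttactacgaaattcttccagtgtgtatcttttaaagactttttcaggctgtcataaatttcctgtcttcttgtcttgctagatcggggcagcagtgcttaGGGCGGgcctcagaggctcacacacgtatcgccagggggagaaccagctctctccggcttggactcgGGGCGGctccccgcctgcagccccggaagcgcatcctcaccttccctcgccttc
HMGA1 first start, chr6:34236623-34236872: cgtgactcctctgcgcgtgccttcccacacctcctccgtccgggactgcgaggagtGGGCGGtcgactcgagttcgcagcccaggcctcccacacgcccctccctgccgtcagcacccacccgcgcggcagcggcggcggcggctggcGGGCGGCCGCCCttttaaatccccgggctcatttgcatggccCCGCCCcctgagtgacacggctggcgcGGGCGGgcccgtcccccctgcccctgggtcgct
HMGA1 second start, chr6:34238541-34238790: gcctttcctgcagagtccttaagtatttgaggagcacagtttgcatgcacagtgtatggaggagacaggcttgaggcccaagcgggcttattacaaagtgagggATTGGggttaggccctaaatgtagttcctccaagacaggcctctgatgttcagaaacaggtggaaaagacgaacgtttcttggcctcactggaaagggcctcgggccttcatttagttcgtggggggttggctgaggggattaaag

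The HMGN2 window held 1 CCAAT, 1 GC box on the minus strand and 1 E-box, the last 2 sharing 1 base. The HMGN4 window held 3 GC boxes and none of the other 6 motifs. At HMGA1, the window of the first start held 5 GC boxes and that of the second start 1 CCAAT on the minus strand. Among all 35116 windows of this length, 32.0% held CCAAT, 42.6% a GC box and 6.34% the E-box. The other 4 motifs, found in none of these 4 windows, were in 5.92% (E2F-type), 13.3% (CHR-type), 3.02% (ISRE-type) and 10.7% (TATAAA) of all windows. Each match is a description of letters and not of a bound site. Windows were available for 8 of the 10 genes, not for HMGA2 and HMGB2.

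Of the 10 genes, 6 were measurable: HMGA1, HMGB2, HMGB3, HMGN1, HMGN2 and HMGN4, each by 1 probe detected on all 16 arrays at a detection p under 0.01. The other 8 probes were detected on no array. These were both HMGA2 probes, the single HMGB1, HMGN3 and HMGN5 probes, and 3 of the 4 HMGA1 probes. Their highest scanner intensity on any array was 121.5 and their lowest detection p was 0.01504. The dimmest value among the measured probes was 232.8, and the lowest detected intensity of any probe ran from 96.5 to 133.6 by array. No level can be given for HMGA2, HMGB1, HMGN3 and HMGN5, and HMGA1 rests on 1 probe of 4.

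**Figure D1:**
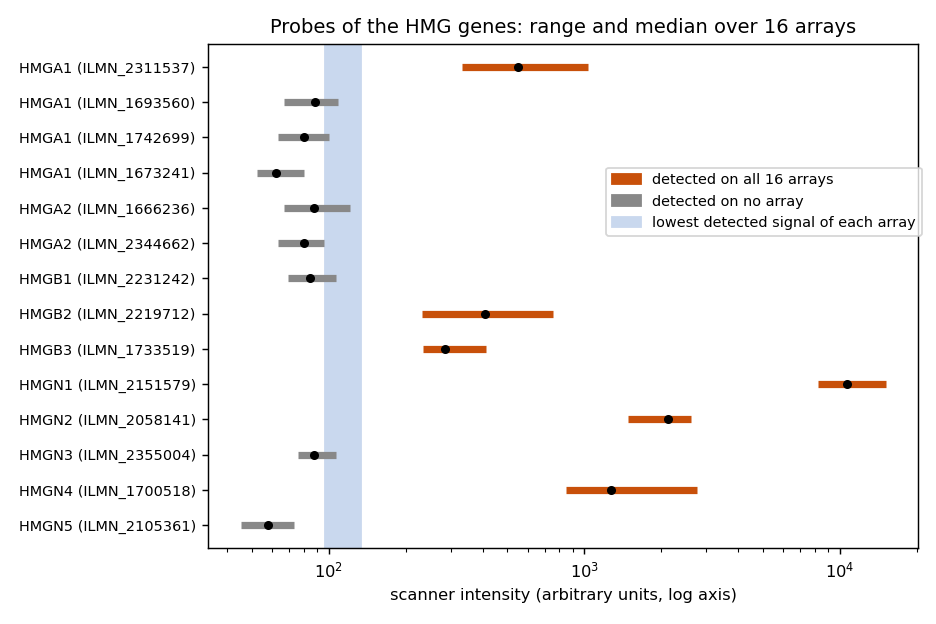
Scanner intensity on a log axis for each of the 14 HMG probes, with a bar from the lowest to the highest of 16 arrays and a point at the median. The 8 grey probes stayed at or under 121.5, within or below the shaded range of the lowest detected signal per array (96.5 to 133.6), and the 6 orange probes lay above it.

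HMGA1, the AT-hook protein of the set, was highest in the untreated hairpin lines and lowest in K26. Its normalized log2 intensities were 10.15 and 9.34 in Ctrl, 9.17 and 9.09 in Ctrl_Dox, 9.33 and 9.19 in sh120, 8.41 and 8.55 in sh120_Dox, 9.37 and 9.24 in sh225, 8.44 and 8.18 in sh225_Dox, 8.66 and 8.92 in WT, and 8.03 and 8.01 in K26. The 2 Ctrl arrays differed by 0.81, more than the arrays of any other group, and Ctrl replicate 1 stood above all 15 other arrays. Both Dox-treated knockdown groups and both overexpression groups lay below every untreated hairpin array.

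HMGA1 fell by 1.00 ± 0.18 with Dox in the sh225 line (limma adjusted p = 0.000315, n = 2 per group) and by 0.78 ± 0.18 in the sh120 line (adjusted p = 0.00786). Without either replicate 1 of sh120 or replicate 1 of sh120_Dox the sh120 line no longer passed (adjusted p of up to 0.0719). In the Ctrl line the Dox difference was -0.62 ± 0.18 (adjusted p = 0.0778). It was -0.21 without Ctrl replicate 1 (adjusted p = 0.744) and -1.02 without Ctrl replicate 2 (adjusted p = 0.00132), so the choice of Ctrl array decides whether HMGA1 was called there. The Dox effect of sh225 minus that of Ctrl was -0.38, with a 95% interval of -0.92 to 0.17 (adjusted p = 0.367). That difference was -0.78 without Ctrl replicate 1 (adjusted p = 0.0156) and 0.03 without Ctrl replicate 2 (adjusted p = 0.95).

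HMGB2, an HMG-box protein of dividing cells that is also part of the SET complex, was lowest in sh225_Dox and highest in the overexpression lines. Its log2 intensities were 8.88 and 8.67 in Ctrl, 8.31 and 8.47 in Ctrl_Dox, 8.60 and 8.65 in sh120, 8.30 and 8.06 in sh120_Dox, 8.77 and 8.52 in sh225, 7.42 and 7.83 in sh225_Dox, 8.99 and 9.31 in WT, and 8.89 and 9.13 in K26. Both sh225_Dox arrays lay below all other arrays. Both WT and both K26 arrays were above the highest array of the remaining groups, 8.88 in Ctrl. HMGB2 did not pass the threshold in the overexpression lines against Ctrl (0.37 ± 0.16, adjusted p = 0.0812, for WT and 0.24 ± 0.16, adjusted p = 0.224, for K26). Against the untreated sh225 line, in the same run of sample numbers, the WT difference was 0.50 (adjusted p = 0.0188) and the K26 difference 0.37 (adjusted p = 0.0574).

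HMGB3, an HMG-box protein best known from blood stem cells, spanned 0.87 between group means. Its log2 intensities were 8.53 and 8.24 in Ctrl, 7.82 and 8.04 in Ctrl_Dox, 8.10 and 8.12 in sh120, 7.94 and 7.78 in sh120_Dox, 8.02 and 7.77 in sh225, 7.62 and 7.41 in sh225_Dox, 8.25 and 8.26 in WT, and 7.71 and 7.37 in K26. K26 and sh225_Dox were the lowest groups and overlapped each other. With Dox, HMGB3 differed by -0.38 ± 0.15 in the sh225 line (adjusted p = 0.0591), -0.25 ± 0.15 in the sh120 line (0.267) and -0.46 ± 0.15 in the Ctrl line (0.121), none of them called.

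HMGN1, the nucleosome-binding protein encoded on chromosome 21, hardly varied: its 16 arrays lay between 13.17 and 13.62, and its group means spanned 0.22. The largest gap within a group, 0.28 in K26, was wider than that span. It was called in none of 11 comparisons by limma, with an unadjusted p under 0.05 in 0 of them.

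HMGN2, a close relative of HMGN1, was lower in both Dox-treated knockdown groups. Its log2 intensities were 11.22 and 11.32 in Ctrl, 11.04 and 11.22 in Ctrl_Dox, 11.25 and 11.43 in sh120, 10.85 and 10.68 in sh120_Dox, 11.29 and 11.27 in sh225, 10.39 and 10.62 in sh225_Dox, 10.96 and 10.86 in WT, and 10.93 and 10.86 in K26. All 6 untreated hairpin arrays lay above every sh120_Dox, sh225_Dox, WT and K26 array. The lowest group was sh225_Dox, apart from the next, sh120_Dox.

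HMGN4, encoded by an intronless gene that arose from HMGN2, was the one measured HMG gene called higher with Dox in a hairpin line or in K26 against WT or Ctrl. Its log2 intensities were 10.19 and 10.26 in Ctrl, 9.99 and 10.12 in Ctrl_Dox, 10.11 and 9.94 in sh120, 10.28 and 10.13 in sh120_Dox, 10.21 and 10.20 in sh225, 10.91 and 11.12 in sh225_Dox, 10.36 and 10.40 in WT, and 10.69 and 10.88 in K26. Both sh225_Dox arrays lay above all others, followed by both K26 and then both WT arrays. The 5 other groups lay between 9.94 and 10.28. Among them Ctrl, sh225 and sh120_Dox overlapped, as did Ctrl_Dox and sh120, with sh120_Dox just above Ctrl_Dox.

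**Figure D2:**
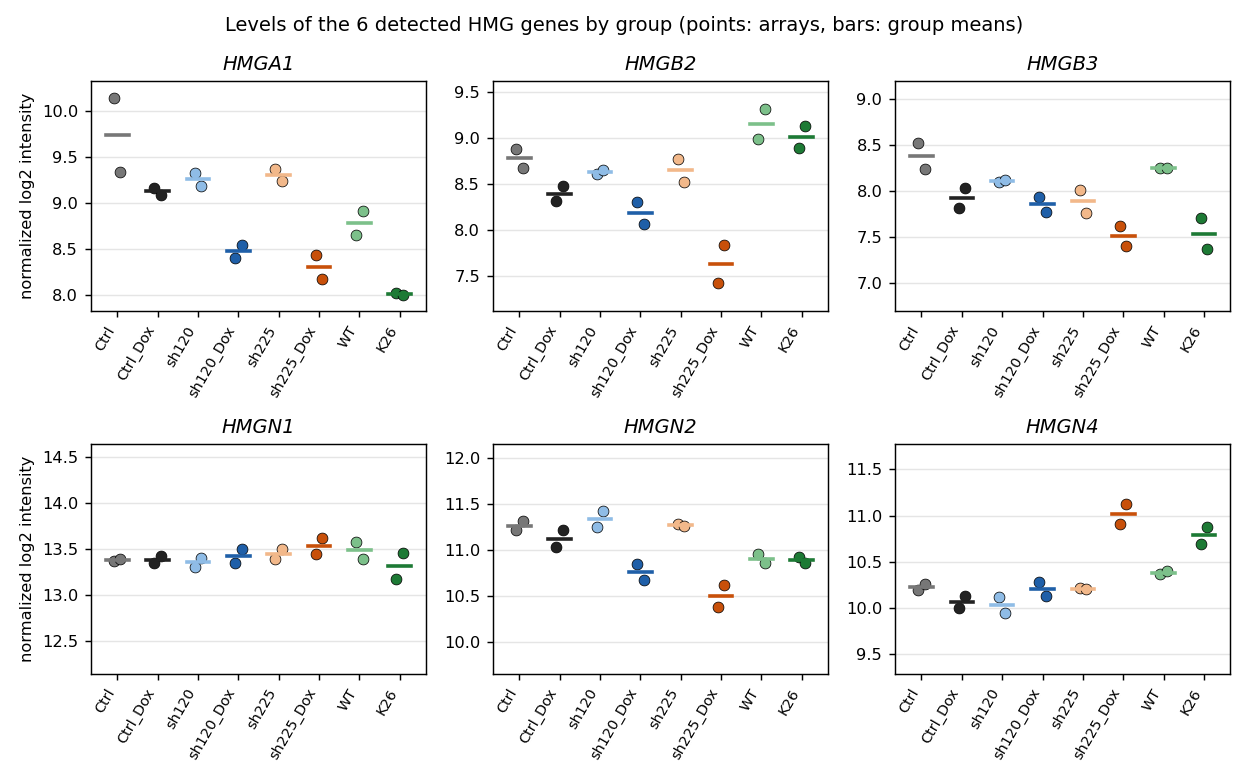
Normalized log2 intensity of the 6 detected HMG genes in the 8 groups, with 1 point per array and a bar at the group mean; each panel spans 2.5 log2 units. HMGN1 is flat, HMGN2 is lowest and HMGN4 highest in sh225_Dox, and the 2 Ctrl arrays of HMGA1 lie 0.81 apart.

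With Dox in the sh225 line, 3 of the 6 measured HMG genes fell and 1 rose. Of all 9654 items tested, 18.5% were called lower and 17.1% higher in this comparison. The falls were those of HMGB2 (-1.02 ± 0.16, limma adjusted p = 5.39e-05), HMGA1 and HMGN2 (-0.77 ± 0.11, adjusted p = 1.88e-05), and HMGN4 rose by 0.81 ± 0.11 (adjusted p = 1.27e-05). HMGN1 differed by 0.09 ± 0.10 (adjusted p = 0.513). The median over the 6 genes was -0.57, beside 0.03 over all items. In bulk RNA, fewer cells of a kind, such as cells in the cell cycle, and less RNA per cell cannot be told apart.

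In the sh120 line 2 of 6 fell with Dox and 0 rose, beside 8.43% of all items called lower and 8.07% higher. These were HMGA1 and HMGN2, the latter by 0.58 ± 0.11 (adjusted p = 0.00186). HMGB2 was at -0.45 ± 0.16 (adjusted p = 0.0585) and HMGN4 at 0.18 ± 0.11 (adjusted p = 0.284). The median of the 6 was -0.35, beside 0.01 over all items. In the Ctrl line 0 of 6 were called by limma, with 3 at an unadjusted p under 0.05 (HMGA1, HMGB2 and HMGB3, all lower) and 2.98% of all items called. There HMGN2 differed by -0.14 ± 0.11 (adjusted p = 0.581) and HMGN4 by -0.17 ± 0.11 (adjusted p = 0.488).

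Tested directly, the Dox effect on HMGN2 was 0.63 lower in the sh225 than in the Ctrl line (-0.63 ± 0.15, limma adjusted p = 0.00753), and that on HMGN4 was 0.98 ± 0.16 higher (adjusted p = 0.000167). These were the 2 of 6 genes called, 1 in each direction, where 9.61% of all items were called lower and 6.66% higher. For HMGB2 the difference was -0.64 ± 0.22 (adjusted p = 0.06). HMGN4 also differed between the knockdown lines, by 0.63 ± 0.16 (adjusted p = 0.00934), as 1 gene higher and 0 lower of 6, beside 5.58% and 8.37% of all items. It no longer passed when sh120 replicate 1 (adjusted p = 0.0597) or sh120_Dox replicate 2 (0.0532) was left out. HMGN2 did not pass between the knockdown lines (-0.19, 95% interval -0.52 to 0.13, adjusted p = 0.472). For sh120 against Ctrl, 0 of 6 were called by limma, with HMGN2 and HMGN4 at an unadjusted p under 0.05 and 0.425% of all items called. The HMGN2 difference there was -0.44 (95% interval -0.76 to -0.11, adjusted p = 0.224).

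**Figure D3:**
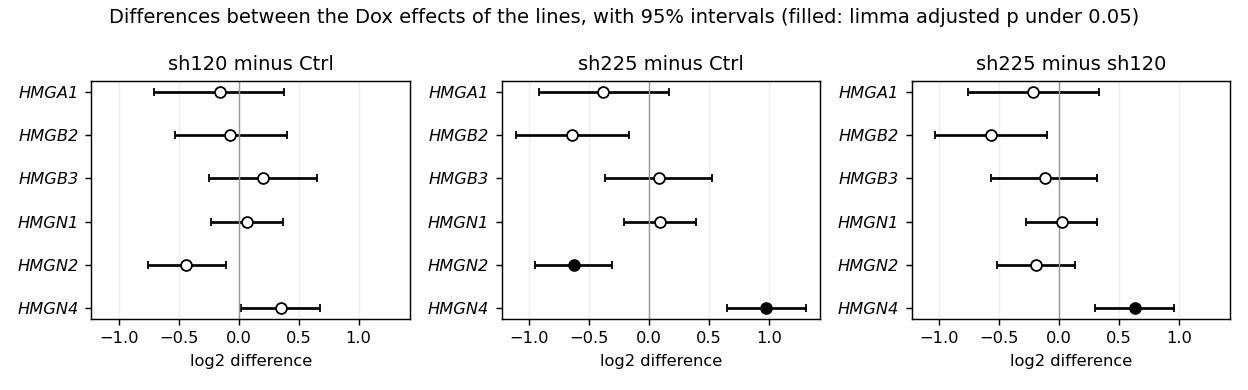
Difference between the Dox effects of pairs of hairpin lines (log2, with 95% intervals) for the 6 HMG genes, filled where the limma adjusted p was under 0.05. Filled points are HMGN2 at -0.63 and HMGN4 at 0.98 for sh225 minus Ctrl, and HMGN4 at 0.63 for sh225 minus sh120.

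K26A against wild type H1.4 compared both overexpression lines within 1 run of sample numbers. The mean log2 intensity of H1-4, the overexpressed gene, was 8.02 in WT and 7.68 in K26. The arrays of the lines did not overlap, but H1-4 was not called lower. HMGA1 fell by 0.77 ± 0.18 (limma adjusted p = 0.00575) and HMGB3 by 0.72 ± 0.15 (0.00261), and HMGN4 rose by 0.40 ± 0.11 (0.0133). These were 2 genes lower and 1 higher of 6, where 12.8% of all items were lower and 10.1% higher. HMGN2 differed by -0.02 (95% interval -0.25 to 0.21) and HMGB2 by -0.14 (-0.47 to 0.20), neither called. Single arrays decided some of these calls. HMGA1 was lost without WT replicate 2 (adjusted p = 0.0656), HMGB3 without K26 replicate 2 (0.0593), and HMGN4 without either WT array or without K26 replicate 2 (up to 0.157).

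Against Ctrl, the WT line had 2 of 6 genes lower and 0 higher, beside 15.5% and 16.3% of all items. HMGA1 was lower by 0.96 (-0.96 ± 0.18, adjusted p = 0.000611) and HMGN2 by 0.35 (-0.35 ± 0.11, adjusted p = 0.0185). HMGN2 no longer passed when Ctrl replicate 2 (adjusted p = 0.105) or WT replicate 2 (0.115) was left out. The HMGA1 difference was -0.55 without Ctrl replicate 1 and -1.37 without Ctrl replicate 2, and -0.52 against the untreated sh225 line (adjusted p = 0.0346). The K26 line had 3 of 6 genes lower and 1 higher than Ctrl, beside 27.2% and 24.2% of all items. HMGA1 differed by -1.73 ± 0.18 (adjusted p = 3.57e-07), HMGB3 by -0.84 ± 0.15 (0.000135), HMGN2 by -0.37 ± 0.11 (0.00765) and HMGN4 by 0.55 ± 0.11 (0.000363). Against the untreated sh225 line the values for K26 were -1.28 for HMGA1, -0.38 for HMGN2 and 0.58 for HMGN4, all called, and -0.36 for HMGB3 (adjusted p = 0.0531). HMGN2 in K26 no longer passed when replicate 2 of Ctrl or of K26 was left out (adjusted p of up to 0.0593).

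The untreated sh225 and sh120 lines were also set against Ctrl, the sh225 line across both runs of sample numbers. In each, 0 of 6 genes were called by limma, with HMGA1 at an unadjusted p under 0.05 in both and HMGB3 in sh225 alone. Of all items, 0.456% and 0.0207% were called. The HMGA1 differences rested on 1 Ctrl array. They were -0.85 (sh225) and -0.90 (sh120) without Ctrl replicate 2, but -0.04 and -0.08 without Ctrl replicate 1.

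**Figure D4:**
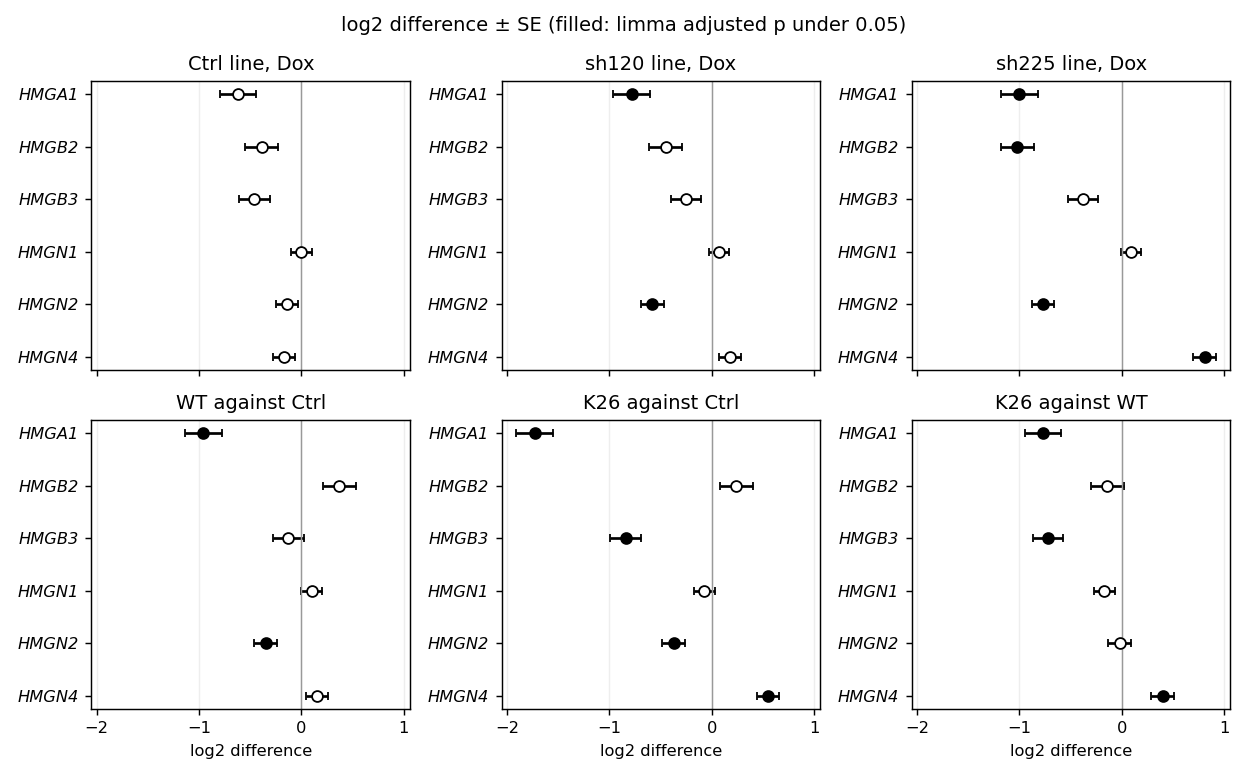
Log2 difference ± SE of the 6 HMG genes with Dox in each hairpin line and between the overexpression lines and Ctrl, filled where the limma adjusted p was under 0.05. HMGA1 lies below 0 in all 6 panels, from -0.62 to -1.73, and HMGN4 is called above 0 at 0.81 (sh225 line, Dox), 0.55 (K26 against Ctrl) and 0.40 (K26 against WT).

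Proliferation markers also moved in several of these comparisons, though not in all. With Dox, 16 of 16 fell in the sh225 line (median -1.77, or -1.64 with 2 undetected genes at their bound), 13 of 16 in the sh120 line (median -0.60) and 0 in the Ctrl line by limma (median -0.13, with 2 of 16 at an unadjusted p under 0.05). TOP2A, the topoisomerase of replicating DNA, fell by 2.20 ± 0.13 in the sh225 line. The shares of all items called lower in these comparisons were 18.5%, 8.43% and, in either direction, 2.98%. In K26 against WT 11 of 16 fell (median -0.61), beside 12.8% of all items. In K26 against Ctrl 13 fell and 1 rose, beside 27.2% and 24.2%. In WT against Ctrl 2 rose and 2 fell, beside 16.3% and 15.5%. Interferon-induced genes rose in 9 of 9 with Dox in the sh225 line, beside 17.1% of all items. In K26 against WT 8 of 9 fell (median -0.98, or -0.79 with 4 undetected genes at their bound). In WT against Ctrl 8 of 9 rose (median 0.66, or 0.62 with 4 at their bound), and in K26 against Ctrl 4 of 9 fell (median -0.46). Their part in the HMG changes was not tested.

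Genes that work with the HMG proteins were followed from lists. With Dox in the sh225 line, 17.1% of all items rose and 18.5% fell; among other HMG-box proteins 4 of 16 rose and 2 fell, close to those shares. SOX4, a progenitor transcription factor, rose by 1.34 ± 0.15 (limma adjusted p = 1.44e-06), and HMG20B, a subunit of the LSD1-CoREST complex, fell by 0.85 ± 0.11 (1e-05). HMG20B also fell by 0.66 ± 0.11 in K26 against WT (0.000477), where 1 of 16 fell and 1 rose, beside 12.8% and 10.1% of all items. The one that rose was HBP1, a repressor of cell cycle genes, at 0.53 ± 0.13 (0.00672), lost under 2 of 16 alternatives.

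Among enzymes that phosphorylate, acetylate, methylate or ADP-ribosylate HMG proteins, 4 of 16 fell and 1 rose with Dox in the sh225 line, beside 18.5% and 17.1% of all items. CDK1, which phosphorylates HMGA1 in mitosis and is a proliferation marker too, fell by 2.21 ± 0.14 (6.82e-10) and CDK2 by 0.98 ± 0.12 (5.3e-06). RPS6KA5, the kinase MSK1 that phosphorylates HMGN1 and histone H3, fell by 0.50 ± 0.12 (0.00288) there and by 0.92 ± 0.12 (6.27e-05) in the sh120 line, where 2 of 16 fell and 1 rose, beside 8.43% and 8.07%. PARP1 fell by 0.52 ± 0.10 in K26 against WT (0.000889), where 4 fell and 2 rose, beside 12.8% and 10.1%. These counts are within a few genes of the shares of all items, with the falls in K26 against WT above their share. The list as a whole was not tested.

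Nucleosome assembly factors and H1 chaperones fell in 5 of 9 genes with Dox in the sh225 line and rose in 0, beside 18.5% and 17.1% of all items. ASF1B, a histone H3-H4 chaperone of S phase, fell by 1.55 ± 0.18 (1.99e-06, detected on 1 of 2 sh225_Dox arrays), PTMA, the acidic protein prothymosin alpha that binds H1, by 1.24 ± 0.18 (2.87e-05), and CHAF1B, of the replication-coupled assembly factor, by 0.86 ± 0.13 (6.37e-05). In the sh120 line, where 8.43% of all items fell, 1 of 9 did, NAP1L4 by 0.48 ± 0.11 (0.006, lost under 2 of 16 alternatives), and in the Ctrl line 0 of 9 were called by limma, with 1 at an unadjusted p under 0.05 and 2.98% of all items called.

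Of the SET complex, in which HMGB2 works, 1 of 4 measured genes rose in the sh225 line with Dox. That was SET itself (0.42 ± 0.14, adjusted p = 0.0259), which failed the threshold in 4 of 16 alternatives. Before Dox, the mean of SET in the sh225 line was below that in Ctrl. In that comparison 1 of the 4 genes was called lower, beside 0.456% of all items called in either direction. In K26 against WT, ANP32B fell by 0.37 ± 0.09 (0.00588, lost under 1 of 16). Of genes for receptors and signalling of secreted HMGB1, 8 of 16 were measurable and 2 rose and 2 fell in the sh225 line. Both this count and that of the SET complex lie near the 17.1% of all items that rose and 18.5% that fell. AGER, TLR2, TLR4 and TLR9, which encode receptors of extracellular HMGB1, were detected on no array. The inflammatory caspase CASP1 rose by 1.59 ± 0.16 (4.53e-07) in the sh225 line. Its detection was limited to 4 arrays, both sh225 and both sh225_Dox replicates, so its signal was already detectable there before Dox. Between untreated sh225 and Ctrl, 0 of the 8 genes were called. CXCR4, the receptor of the HMGB1-CXCL12 complex, fell by 1.04 ± 0.16 (4.61e-05) in the sh225 line. In the Ctrl line it fell by 1.09 ± 0.16 (0.000323). There 2 of the 8 genes fell and 1 rose, beside 2.98% of all items called in either direction. In the sh120 line 0 of 8 fell and 2 rose, beside 8.43% and 8.07% of all items, so CXCR4 was not called lower there.

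In the let-7 pathway, which represses HMGA2, LIN28A, an inhibitor of let-7 maturation, was 1 of 4 measured genes called with Dox in the sh225 line, beside 18.5% of all items lower. It fell by 2.02 ± 0.15 (limma adjusted p = 4.38e-09), and by 0.88 ± 0.15 (0.00144) in the Ctrl line. Of all items, 2.98% were called in the Ctrl line in either direction. In the sh120 line 2 of the 4 genes fell and 0 rose, beside 8.43% and 8.07% of all items. The sh225 effect on LIN28A was larger than the Ctrl effect by 1.14 (-1.14 ± 0.21, adjusted p = 0.000692), beside 9.61% of all items called lower. Between the sh225 and sh120 Dox effects, 1 of the 4 genes was called lower and 1 higher, beside 8.37% and 5.58% of all items. LIN28A lies 2 protein-coding genes from HMGN2 on chromosome 1.

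The genes most like HMGA1 and HMGB2 over the arrays were found by Pearson's r, for the members whose group means spanned at least 1 on the log2 scale. For HMGA1 these were GHDC (r = 0.97), DMBX1 (0.96) and POMGNT2 (0.95), with SLC26A11 the most opposed (-0.96). For HMGB2 they were ATAD2 (0.93), CKS1B (0.93) and CEP152 (0.92), with KCNF1 most opposed (-0.96). Each r is over 16 arrays that share groups and normalization, and describes these arrays only. Between members, r over the 16 arrays was 0.77 for HMGA1 with HMGB3, 0.72 for HMGA1 with HMGN2 and -0.72 for HMGN2 with HMGN4.

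Neighbours of HMGN4, 8 protein-coding genes on each side, were looked at after its values were seen. Of 16 neighbours 9 were tested, and with Dox in the sh225 line 4 rose and 1 fell, beside the 17.1% and 18.5% of all items given for that comparison. The butyrophilins BTN2A1 and BTN3A1, on one side, were at 1.09 ± 0.16 (limma adjusted p = 2.85e-05) and 0.95 ± 0.21 (0.00134), ABT1, the next gene on the other side, at 0.81 ± 0.19 (0.00302), and the histone gene H4C8 at 0.41 ± 0.13 (0.0196, lost under 4 of 16 alternatives). PRSS16 was at -0.77 ± 0.21 (0.00661, lost under 2 of 15). In K26 against WT, 4 rose and 2 fell, beside 10.1% and 12.8% of all items. H4C8 had the largest difference of the 9 (1.71 ± 0.13, adjusted p = 1.17e-07), and H2BC12 was at 0.43 ± 0.09 (0.00206). BTN2A1 was at 0.61 ± 0.16 (0.00974, lost under 2 of 16 alternatives) and ABT1 at 0.66 ± 0.19 (0.0194, lost under 4 of 15). The butyrophilin BTN3A2 was at -0.88 ± 0.25 (0.0163, lost under 2 of 15) and PRSS16 at -0.96 ± 0.21 (0.00274, lost under 1 of 15). The other measured HMG genes also had called neighbours. With Dox in the sh225 line, HMGN1, itself at 0.09, had 4 of 10 tested neighbours higher and 0 lower, and HMGN2 had 2 of 12 higher and 5 lower. HMGN4's pattern over the arrays was closest to those of SNRK (r = 0.93) and SQSTM1 (0.91), also looked at after its values were seen.

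**Figure D5:**
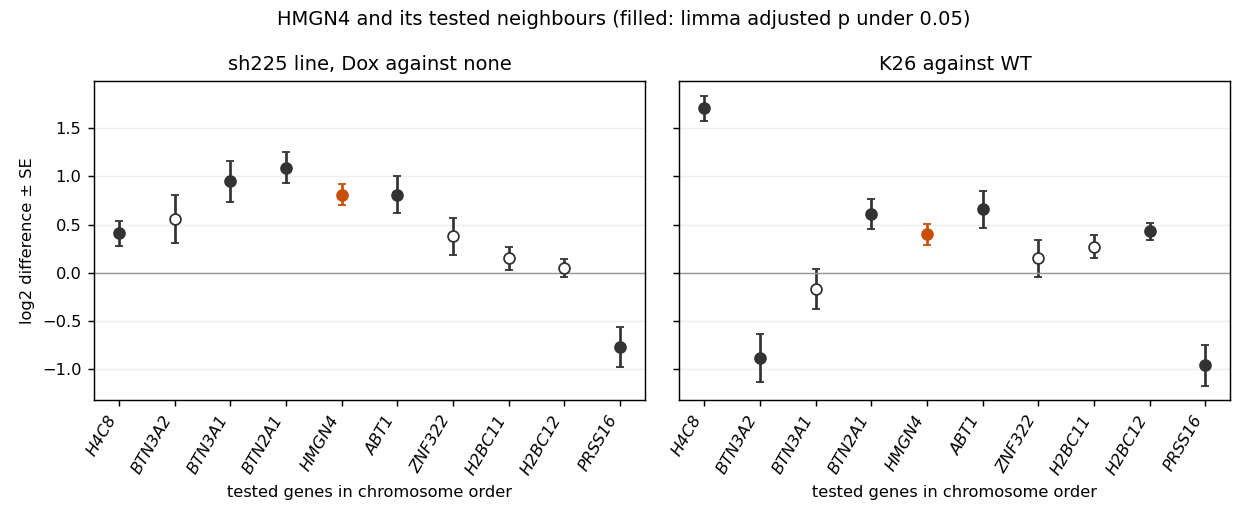
Log2 difference ± SE of HMGN4 (orange) and its 9 tested neighbours in chromosome order, with Dox in the sh225 line and for K26 against WT, filled where the limma adjusted p was under 0.05. With Dox, HMGN4 is at 0.81, its nearest tested neighbours BTN2A1 and ABT1 are at 1.09 and 0.81, and PRSS16 is at -0.77.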

How the data were processed

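Per the labels' protocols, cDNA from 100 ng of total RNA (RIN 9.5) was made into biotinylated cRNA for the arrays, and GenomeStudio 1.6.0 is listed, with no role, per the submitters' processing notes. The deposited scanner table holds an intensity per probe and array, not scaled between arrays, with a detection p-value. The authors' series matrix holds normalized linear intensities, by steps not given in the sources used here, and served as an alternative. For 1096 of 24530 probes, and 0 of the 14 HMG probes, the tables disagreed by over 0.3 (log2). Intensities were processed with neqc (normexp, offset 16, quantile, log2) in limma 3.58.1 under R 4.3.3. A probe was kept if its detection p was under 0.01 on 2 or more arrays (11258 probes), and the brightest per symbol was tested, 9654 items in all. Probes were named from the platform annotation, whose symbols for the 14 HMG probes all matched the gene table. All 16 arrays entered 1 limma fit of group means (8 residual degrees of freedom, eBayes with trend), with Benjamini-Hochberg adjustment over all items and a threshold of 0.05. Where a gene was undetected in 1 group, the lowest detected signal of each array set the bound. The genes and lists were chosen with earlier results of these data known. All 10 HMG genes are accounted for; from each list only the 4 called genes of largest change could be named, and genes of like pattern were the 3 of highest and 1 of lowest Pearson r for members whose group means spanned at least 1. Precision is limited by the small number of arrays, with a median SE of 0.152 for group differences. Alternatives changed the background correction, offset, normalization, table, filter, probe choice, variance model, samples fitted, replicate block, and left out each array. Deviations of same-numbered samples correlated at r from -0.36 to 0.32 over 28 pairs of groups, over 0.1 in 9 and under -0.1 in 7, so the numbers were not used as pairs.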

Additional observations from a re-analysis of the deposited data

Results flagged for a closer look

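The following 3 results, each from a test of the difference between Dox effects, were called between hairpin lines. The HMGN2 effect was lower in the sh225 than in the Ctrl line by 0.63 on the log2 scale (-0.63 ± 0.15, limma adjusted p = 0.00753), with both sh225_Dox arrays below both sh225 arrays and overlapping no Ctrl_Dox array. The HMGN4 effect was higher in the sh225 than in the Ctrl line by 0.98 ± 0.16 (adjusted p = 0.000167). It was also higher in the sh225 than in the sh120 line, by 0.63 ± 0.16 (adjusted p = 0.00934). That call was lost without sh120 replicate 1 or without sh120_Dox replicate 2. The HMGN2 effect was not called between the sh225 and sh120 lines (-0.19, limma adjusted p = 0.472). All 3 flagged results span both runs of sample numbers. Single arrays were not tested as outliers within groups of 2.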

How the results depend on the processing

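Counts of HMG genes called stayed within 1.5 times the main count under every alternative for the sh225 Dox effect (4 to 5 genes without each array in turn), its difference from Ctrl (2 to 3), the sh120 difference from Ctrl (0) and K26 against Ctrl (3 to 4). Elsewhere single arrays moved them. Leaving out each array in turn gave 1 to 2 genes for the sh120 Dox effect, 0 to 1 for the Ctrl Dox effect, 0 to 2 for sh225 minus sh120, 1 to 3 for K26 against WT, 1 to 2 for WT against Ctrl, and 0 to 1 for untreated sh225 and for untreated sh120 against Ctrl. The arrays that decide were Ctrl replicate 2 (1 gene, HMGA1, for the Ctrl Dox effect and both untreated comparisons; 1 for WT against Ctrl), WT replicate 2 (1 for WT against Ctrl and for K26 against WT), K26 replicate 2 (1 for K26 against WT), sh120 replicate 1 (1 for the sh120 Dox effect, 0 for sh225 minus sh120), sh120_Dox replicate 1 (1), sh120_Dox replicate 2 (0) and sh225_Dox replicate 2 (2). A log2 change of at least 0.5 left 1 gene in WT against Ctrl.

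With the replicate block the counts were 5 for the sh225 Dox effect, which adds HMGB3, 3 for K26 against WT, 2 for the sh120 Dox effect, for sh225 minus Ctrl and for WT against Ctrl, 4 for K26 against Ctrl, 1 for sh225 minus sh120 and 0 elsewhere. With the Ctrl numbers crossed, chosen after seeing the data, they were 0 for the Ctrl Dox effect, 2 for WT and 4 for K26 against Ctrl. No HMG gene was called in opposite directions. Among other genes, 6 values turned. In the authors' series matrix UBTF was at 0.113 (WT against Ctrl, adjusted p = 0.203) and 0.053 (K26 against Ctrl, 0.519), neither called, and PCNA at -0.326 (K26 against Ctrl, 0.00712). Against the untreated sh225 line SET was at 0.607 (WT) and 0.719 (K26), and against all untreated hairpin lines at 0.345 (K26), comparisons chosen after seeing the data. Neither PCNA nor SET was called in these comparisons as reported. The cause was not tested. Signal limits HMGA2, HMGB1, HMGN3 and HMGN5, whose probes passed the detection p threshold of 0.01 on no array.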

Other observations

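The pseudogene HMGB1P1, whose sequence resembles HMGB1, had a probe detected on 15 of 16 arrays, while the HMGB1 probe was detected on none. Its log2 intensities were 6.68 and 6.82 in sh225 and 5.82 and 6.16 in sh225_Dox, with both sh225_Dox arrays below the other 14, and it fell by 0.76 ± 0.16 (limma adjusted p = 0.00104). Against the Ctrl line the Dox effect was lower by 0.67 (-0.67 ± 0.23, adjusted p = 0.0499), which failed the threshold in 14 of 19 alternatives. Which of the near-identical copies the probe measures cannot be told apart here. Probes of HMGB3P1 and HMGN2P46 were detected on no array.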
